A study of Mus musculus with 2 samples.

Results

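The 10 genes described here encode the granins and the enzymes and chaperones that process prohormones. They are Chga, Chgb, Scg2, Scg3, Scg5, Vgf, Cpe, Pcsk1, Pcsk2 and Pcsk1n. They were taken by name from a droplet single-cell count matrix of mouse small intestinal organoids, and 10 of 10 were found among its 31053 genes. The study grew intestinal epithelium in culture with or without melatonin. 1 library is labelled control and 1 is labelled melatonin-treated. For each, cells of 3 independent lines were pooled at day 3 of culture. Strain, sex and age of the donor mice and the dose of melatonin are not given in the sources used here.

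The deposited files of the control and the melatonin sample were identical in 3 of 3 comparisons, so they hold the same matrix and were counted as 1 sample. Its barcodes end in 1 or in 2, and they are called set 1 and set 2 here. No label ties a set to a treatment. No comparison of control with melatonin was made, and the direction of every ratio between the sets is arbitrary. Cells are not replicates, so no test was run. Counts of unique molecular identifiers (UMIs) were summed over the cells of a class and scaled to 1000000 UMIs of that class (CPM). The 95% intervals (exact Poisson for a CPM, exact binomial for a fold and exact Clopper-Pearson for a share) cover counting error only. The spread between the sets is given where both are printed, and other values are pooled over the sets.

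Enteroendocrine cells are the hormone-secreting cells of the gut epithelium. They arise from progenitors that transiently express the transcription factor Neurog3. Some become enterochromaffin cells, which make serotonin through the enzyme Tph1, and others make peptide hormones such as cholecystokinin (Cck), gastric inhibitory polypeptide (Gip), ghrelin (Ghrl), glucagon-like peptides (Gcg), neurotensin (Nts) and somatostatin (Sst). Both kinds store their product in dense-core granules. Granins are acidic proteins that aggregate in the secretory pathway, take part in granule formation and are themselves cut into peptides. The convertases PC1/3 (Pcsk1) and PC2 (Pcsk2) cut prohormones at paired basic residues. Carboxypeptidase E (Cpe) then trims those residues. 7B2 (Scg5) is the chaperone and inhibitor of PC2, and proSAAS (Pcsk1n) is an inhibitor of PC1/3.

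Promoter sequence is shown for the 4 members whose start site lies near a match to the cyclic AMP response element, the site bound by factors of the CREB family. It was taken from RefSeq for assembly GRCm38.p6, whose promoter table held 8 of the 10 members (Cpe and Vgf had no entry). Each stretch runs 5′ to 3′ on the gene's strand, from 100 bases before the annotated start to 50 after it, and the capitals mark the match. The positions are chr12:102554841-102554990 on the plus strand for Chga, chr2:132781542-132781691 on the plus strand for Chgb, chr1:79439977-79440126 on the minus strand for Scg2 and chr13:75089757-75089906 on the plus strand for Pcsk1.
Chga: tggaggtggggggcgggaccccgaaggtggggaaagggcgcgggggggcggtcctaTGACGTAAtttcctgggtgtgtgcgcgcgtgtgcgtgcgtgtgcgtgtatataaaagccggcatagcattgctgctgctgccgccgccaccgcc
Chgb: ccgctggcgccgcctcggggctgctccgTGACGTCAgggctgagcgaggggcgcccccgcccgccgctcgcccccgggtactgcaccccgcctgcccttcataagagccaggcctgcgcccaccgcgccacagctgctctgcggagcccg
Scg2: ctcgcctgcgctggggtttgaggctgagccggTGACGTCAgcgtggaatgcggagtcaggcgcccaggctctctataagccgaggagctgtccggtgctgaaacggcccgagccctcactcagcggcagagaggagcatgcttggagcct
Pcsk1: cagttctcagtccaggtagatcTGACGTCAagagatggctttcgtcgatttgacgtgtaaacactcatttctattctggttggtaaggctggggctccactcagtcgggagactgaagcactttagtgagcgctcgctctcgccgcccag
The motif TGACGTCA, which reads the same on both strands, was found 72 bases before the start of Chgb, 68 before that of Scg2 and 78 before that of Pcsk1. Over windows of 300 bases it was in 588 of 32851 RefSeq promoters (1.79%) and in 3 of 8 member promoters. The looser form TGACGTNA, searched on both strands and including the first motif, was in 963 promoters (2.93%) and in 4 of 8 members, the added one being TGACGTAA 44 bases before the start of Chga. These matches describe letters in a window and show no binding.

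Of 21806 barcodes, 4066 passed as cells, the limits being 500 genes or more, 1000 UMIs or more and no more than 20% of UMIs from mitochondrial genes. Set 1 gave 2300 cells with a median of 29872 UMIs, and set 2 gave 1766 cells with a median of 28759. The sets shared 29 barcode sequences, 0 of them among kept cells. A cell was gated as enteroendocrine when it held at least 3 Neurog3 UMIs and 1 per 10000 UMIs, the same for Tph1, or at least 10 UMIs and 5 per 10000 over 8 peptide hormone genes (Gcg, Cck, Gip, Sst, Pyy, Nts, Ghrl and Insl5). None of the 10 members was used in a gate. Gated cells numbered 620, which is 15.2% of the kept cells and 9.14% of their UMIs. They comprised 42 cells past the Neurog3 gate only (29 in set 1 and 13 in set 2), 322 Tph1 cells without hormone (168 and 154), 219 hormone cells without Tph1 (93 and 126) and 37 cells past both of those gates (24 and 13). The Tph1 and hormone cells could carry Neurog3 or not. Within a factor of 2 of a gate lay 22 cells below and 49 above for Neurog3, 15 and 24 for Tph1, and 98 and 39 for the hormones. A further 14 cells passed none of the 3 gates but held at least 3 Neurod1 UMIs and 1 per 10000, and they were kept apart. The remaining 3432 cells were counted as other and held 82 Neurod1 UMIs in all.

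The gates were checked against genes they did not use. Insm1, a zinc-finger factor of endocrine differentiation, stood at 549 CPM in gated and 1.62 CPM in other cells, and the homeobox gene Nkx2-2 at 252 and 0.567 CPM. The list of 21 enteroendocrine markers includes the gate genes themselves, so its detection in gated cells checks nothing. A list of 5 immune markers summed to 3.01 CPM in gated and 1.18 CPM in other cells, with Ptprc at 0 in both and Cd74 at 1.84 against 0.215 CPM. A list of 7 goblet and Paneth markers was higher in gated cells, at a summed 1193 CPM against 274 CPM in other cells (1016 against 122 CPM in set 1 and 1366 against 460 CPM in set 2). Of these 7, Clca1 was at 0 in gated cells, Muc2 stood at 2.33 against 6.23 CPM and Zg16 at 0.679 against 12.3 CPM, while Defa24 (716 against 164 CPM), Lyz1 (266 against 36.8), Fcgbp (161 against 52.3) and Mmp7 (46.7 against 1.26) made up the excess. The sum was 2253 CPM in Neurog3, 1585 in hormone, 782 in Tph1 and 572 CPM in Tph1 and hormone cells, and 88 gated cells also passed a goblet and Paneth gate. The part of these markers in the results was not tested beyond leaving such cells out. Gated cells were shallower than other cells, with median UMIs of 15068.5 against 32312.5.

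All 10 members were at least 2-fold higher in gated enteroendocrine cells than in other cells, against 25.0% of the 15465 genes compared. The median log2 ratio over the members, on CPM plus 1, was 7.42, and over all genes it was 0.33. The lowest was 3.30, for Pcsk2. By this ratio Chga ranked 4 and Chgb 6 among the 15465 genes, Scg2 15, Pcsk1 16, Cpe 20, Scg5 31, Scg3 43, Pcsk1n 47, Vgf 56 and Pcsk2 458. All 10 were also at least 2-fold higher in set 1 alone and in set 2 alone, where 27.6% and 25.4% of genes passed. The gated cells held between 93.3% (Pcsk2) and 98.2% (Scg2 and Scg3) of the UMIs of each member. When the 92 gated cells that also passed an enterocyte or a goblet and Paneth gate were left out, 10 of 10 were still at least 2-fold higher.

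Chromogranin A (Chga), the classical tissue marker of endocrine cells, stood at 4439 CPM in set 1 and 5708 in set 2 of the gated cells, against 7.13 and 9.49 CPM in other cells. Pooled over the sets this was a 621-fold ratio (interval 580 to 665). Chromogranin B (Chgb), its close relative, stood at 34159 and 32113 CPM against 59.1 and 63.6 CPM, a 542-fold ratio (528 to 556). Both genes were high in each set of gated cells and low in each set of other cells. Secretogranin II (Scg2), the precursor of secretoneurin, was counted at 296 and 598 CPM against 0.656 and 1.05 CPM (540-fold, 436 to 677). Secretogranin III (Scg3), which binds chromogranin A and granule membranes, stood at 104 and 144 CPM against 0.160 and 0.131 CPM. Its 845-fold ratio has a wide interval (510 to 1514), because other cells held 15 UMIs of it in all. Vgf, a granin-like precursor of several peptides, stood at 162 and 142 CPM against 0.904 and 0.611 CPM (197-fold, 157 to 250).

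The processing genes showed the same order between gated and other cells. Cpe stood at 1049 CPM in set 1 and 1563 in set 2, against 4.79 and 5.97 CPM (246-fold, 226 to 269). Pcsk1 stood at 461 and 489 CPM against 0.975 and 0.916 CPM (501-fold, 409 to 618). Its partner convertase Pcsk2 was scarce everywhere, with 98 UMIs in gated cells (2.55 CPM in set 1 and 16.3 in set 2) and 7 in other cells (0.106 and 0.0218 CPM). The ratio was 24.0-fold in set 1 (8.50 to 76.9) and 748-fold in set 2 (131 to 29896), the latter on 1 UMI in other cells, and 61 of the 98 UMIs lay in 1 cell of set 2. The inhibitors were higher in gated cells in each set as well. Scg5 stood at 214 and 239 CPM against 0.585 and 0.632 CPM (374-fold, 291 to 490), and Pcsk1n at 126 and 144 CPM against 0.514 and 0.240 CPM (346-fold, 253 to 487).

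The size of these ratios changed with the gates, the mitochondrial limit and the scaling, although 9 or 10 of the 10 passed 2-fold in every alternative tried. The log2 ratio of Chga was 9.11, and it was 7.85 with doubled gates, 8.11 without the mitochondrial limit and 7.64 with the CPM averaged over single cells. For Chgb it was 9.06, and 7.64, 8.11 and 7.53 under the same changes. Pcsk2 was the exception below 2-fold, at 0.95 on the log2 scale with a pseudocount of 10 CPM.

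**Figure D1:**
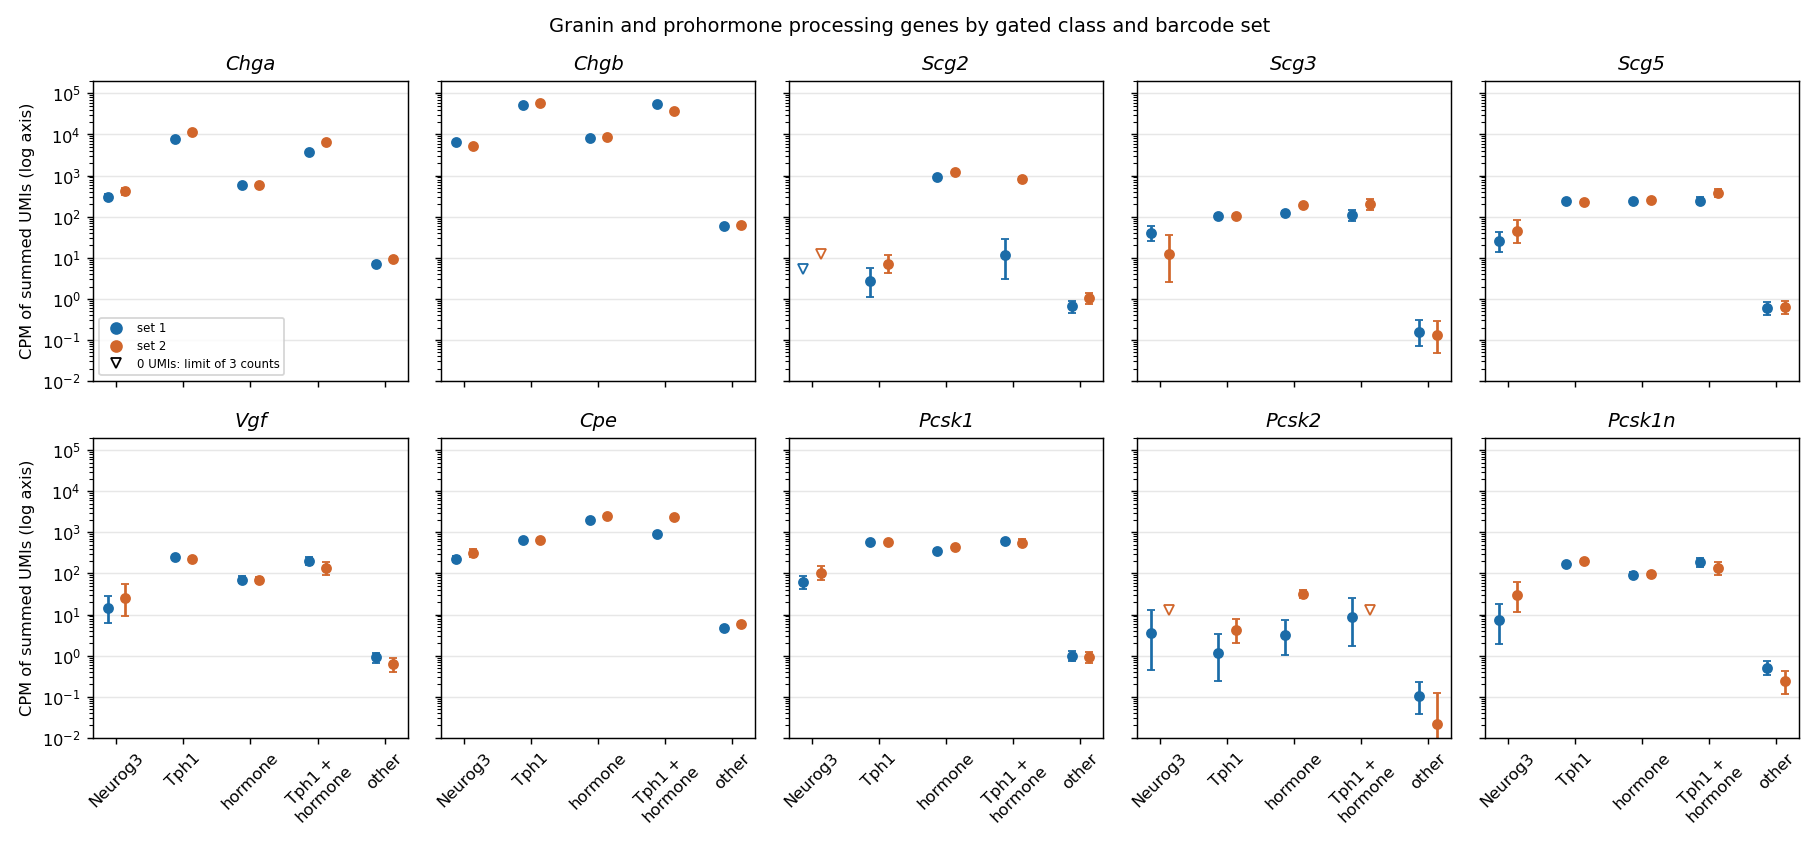
CPM of summed UMIs on a log axis for the 10 members in 5 classes of cells, with set 1 in blue and set 2 in orange, bars for exact Poisson 95% intervals, and open triangles for the limit of 3 counts where no UMI was seen. Each member lies higher in the Tph1 and hormone classes than in other cells, and Chgb in other cells sits at 59.1 and 63.6 CPM.

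Among other cells Chgb UMIs were widespread, and a single cell held 603 of the 6251. After every cell was thinned to 2000 UMIs, a Chgb UMI was expected in 10.1% of other cells and in 92.9% of gated cells. The unthinned shares were 68.9% and 97.4%. The 266 cells past an enterocyte gate gave 9.76% after thinning, close to the share over all other cells. Their median depth was 33896 UMIs. The source of the Chgb UMIs in other cells was not tested. The thinned share for Chga was 1.72% of other cells, 1.22% of enterocytes and 73.9% of gated cells (unthinned 16.8%, 16.9% and 92.6%). For the remaining 8 members it was between 0.0112% (Pcsk2) and 1.27% (Cpe) of other cells. At this depth 3097 of 3432 other cells and 613 of 620 gated cells could be used.

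The proportion of each member to Chgb was also set side by side in gated and other cells. Per 100 Chgb UMIs, other cells held 1.36 Scg2 UMIs (1.08 to 1.68), 1.55 Pcsk1 UMIs (1.26 to 1.90) and 0.240 Scg3 UMIs (0.134 to 0.396). Gated cells held 1.36 (1.32 to 1.40), 1.43 (1.39 to 1.47) and 0.374 (0.354 to 0.395), so for these members the intervals overlapped. The gated value pools unlike classes, since Scg2 stood at 12.9 per 100 Chgb UMIs in hormone and 0.00874 in Tph1 cells, and Cpe at 26.9 and 1.17. For the other members the intervals of gated and other cells did not overlap. Chga was lower in other cells, at 13.4 (12.4 to 14.4) against 15.3 (15.2 to 15.5) in gated cells. Cpe and Vgf were higher in other cells, at 8.70 (7.96 to 9.50) and 1.26 (0.999 to 1.58) against 3.95 (3.88 to 4.02) and 0.459 (0.437 to 0.482). Scg5 and Pcsk1n were higher there too, at 0.992 (0.760 to 1.27) and 0.640 (0.457 to 0.872) against 0.685 (0.658 to 0.714) and 0.409 (0.388 to 0.431). Pcsk2, on 7 UMIs in other cells, stood at 0.112 (0.0450 to 0.231) against 0.0287 (0.0233 to 0.0350). At 10 or more UMIs per 10000, 55 of the 3432 other cells held Chgb, 7 held Chga, 5 held Cpe and 1 held Pcsk1, while the other 6 members reached this level in 0 of them.

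The hormone and Tph1 cells differed in the levels of several members. Scg2, Cpe and Pcsk2 were at least 2-fold higher in hormone cells, and Chga, Chgb and Vgf at least 2-fold higher in Tph1 cells. Scg3, Scg5, Pcsk1 and Pcsk1n lay within 2-fold. These 6 of 10 members that differed stand against 13.5% of 12700 genes past 2-fold in either direction (5.2% higher in hormone cells and 8.34% higher in Tph1 cells). The goblet and Paneth markers also differed between these classes, at 962 CPM in hormone and 824 CPM in Tph1 cells of set 1, and 2007 and 736 CPM in set 2. Without cells of 2 lineages 5 of 10 passed, the one lost being Pcsk2. It was also lost without the single Sst-led cell, which held 61 of its 80 UMIs in hormone cells.

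Scg2 showed the widest separation. In set 1 it stood at 934 CPM in hormone cells and 2.71 CPM in Tph1 cells, and in set 2 at 1228 and 7.17 CPM. Pooled, the hormone cells were 229-fold higher (154 to 358), and the 322 Tph1 cells held 24 Scg2 UMIs in all. A Scg2 UMI was seen in 166 of 219 hormone cells and in 19 of 322 Tph1 cells. Scg2 stood at 4.84 CPM in Tph1 cells (3.1 to 7.2) and 0.788 CPM in enterocytes (0.317 to 1.62). After thinning the shares in hormone cells, Tph1 cells and enterocytes were 61.2%, 0.948% and 0.165%, and before it 75.8%, 5.90% and 2.63%, from median depths of 17905, 14241 and 33896 UMIs.

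Chga went the other way. Tph1 cells held 7797 CPM in set 1 and 11277 in set 2, against 590 and 600 CPM in hormone cells, so that Tph1 cells were 15.9-fold higher (15.2 to 16.5). Chgb stood at 53254 and 57787 CPM in Tph1 cells against 8385 and 8755 CPM (6.44-fold higher, 6.37 to 6.51). All 322 Tph1 cells held Chgb at 10 or more UMIs per 10000, as did 177 of the 219 hormone cells. Vgf stood at 245 and 228 CPM in Tph1 cells against 71.0 and 68.7 CPM (3.40-fold higher, 2.98 to 3.89). For these 3 genes the class sums of Tph1 cells lay above those of hormone cells in each set. Single cells overlapped, with Chga down to 0 UMIs per 10000 in Tph1 cells and up to 44.7 in hormone cells. Chgb went down to 13.2 in Tph1 cells and up to 862 in hormone cells. Tph1 cells with Neurog3 held 1844 CPM of Chga and those without held 13178 CPM, against 596 CPM in hormone cells.

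Among the processing genes, Cpe was higher in hormone cells, at 2033 and 2512 CPM against 636 and 666 CPM in Tph1 cells (3.57-fold, 3.43 to 3.71). Its median was 21.4 UMIs per 10000 in a hormone cell and 6.36 in a Tph1 cell. Pcsk1 was closer, at 355 and 434 CPM in hormone against 591 and 575 CPM in Tph1 cells, which made Tph1 cells 1.45-fold higher (1.36 to 1.54). Pcsk1n was at the edge of the 2-fold line, with 90.3 and 95.6 CPM against 166 and 206 CPM. Tph1 cells were 1.98-fold higher (1.75 to 2.24), and Pcsk1n passed 2-fold without the mitochondrial limit, with halved gates or with the hormone gene Sct in the gate. Scg5 was level, at 236 and 252 CPM against 237 and 233 CPM (ratio 1.05, 0.960 to 1.14). Its log2 ratio ran from -0.08 to 0.31 over the alternatives of gates, limits and scaling. Scg3 was 1.54-fold higher in hormone cells (1.37 to 1.74), with 121 and 191 CPM against 106 and 105 CPM, and its excess was mostly that of set 2.

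**Figure D2:**
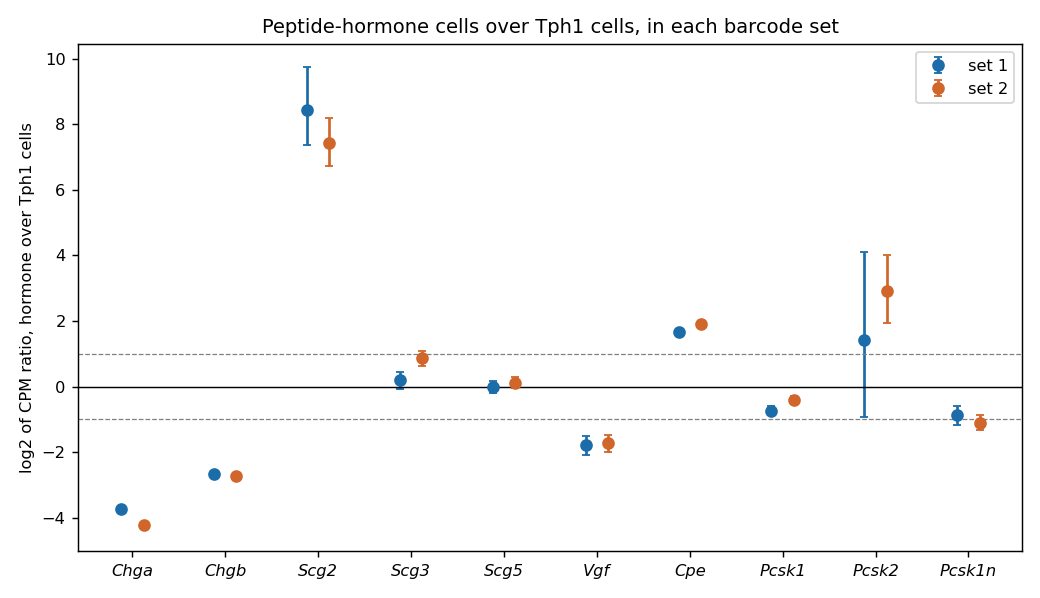
Log2 of the CPM ratio of hormone over Tph1 cells for each member, in set 1 (blue) and set 2 (orange), with exact binomial 95% intervals and dashed lines at 2-fold. Scg2 and Cpe lie above the upper line and Chga, Chgb and Vgf below the lower line in each set, while the set 1 interval of Pcsk2 runs from 0.522-fold to 17.3-fold.

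The class sums of the 37 cells past both the Tph1 and the hormone gate lay between those classes for some members. As a class sum Chga stood at 3839 CPM in set 1 and 6550 in set 2, between the hormone and the Tph1 cells. Single cells of set 1 held from 1.77 to 302 Chga UMIs per 10000. In set 2 the highest cells held 179, 224, 304 and 351 Chga UMIs per 10000, and the rest held 1.63 to 17.1. The Neurog3 gate was passed by 17 of the 24 cells in set 1 and 4 of the 13 in set 2. Chgb stood at 54832 and 36678 CPM and Pcsk1 at 614 and 566 CPM, closer to the Tph1 than to the hormone cells. Scg2 was uneven, with 4 UMIs in the 24 cells of set 1 (11.4 CPM) and 184 in the 13 cells of set 2 (813 CPM), and 3 cells held 88.8% of the sum. Whether these 37 are cells of both kinds or droplets with 2 cells was not tested, and their median of 14617 UMIs was close to that of Tph1 cells.

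Neurog3 marks the early, transient stage of the lineage, and it split the Tph1 cells by Chga. The 114 Tph1 cells with Neurog3 held 1337 CPM of Chga in set 1 and 2465 in set 2. The 208 Tph1 cells without it held 11214 and 15204 CPM. Cells without Neurog3 were 7.15-fold higher (6.89 to 7.42), and the median cell held 130 UMIs per 10000 without and 9.71 with Neurog3. The quartiles did not overlap, at 41.0 to 197 and 4.53 to 22.6 UMIs per 10000.

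Chgb did not share this difference. Tph1 cells with Neurog3 held 55299 and 53822 CPM of it and those without held 52172 and 59555 CPM, a ratio of 1.02 (1.01 to 1.03). Vgf followed Chga, at 122 and 99.9 CPM with Neurog3 against 310 and 285 CPM without (2.66-fold, 2.27 to 3.13). Scg2 also passed 2-fold, at 2.44 (0.817 to 9.82), but on 20 and 4 UMIs. The other 6 members lay within 2-fold, with Cpe (571 CPM without against 811 with Neurog3), Scg3 (94.6 against 127 CPM) and Pcsk2 (2.40 against 3.08 CPM, on 8 and 5 UMIs) on the lower side. These 3 of 10 past 2-fold stand against 8.97% of 11610 genes in either direction and 4.6% higher. The Neurog3 gate and Chga were read in the same cells, and the share of Tph1 cells with Neurog3 was 35.7% in set 1 (28.5% to 43.5%) and 35.1% in set 2 (27.6% to 43.2%).

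**Figure D3:**
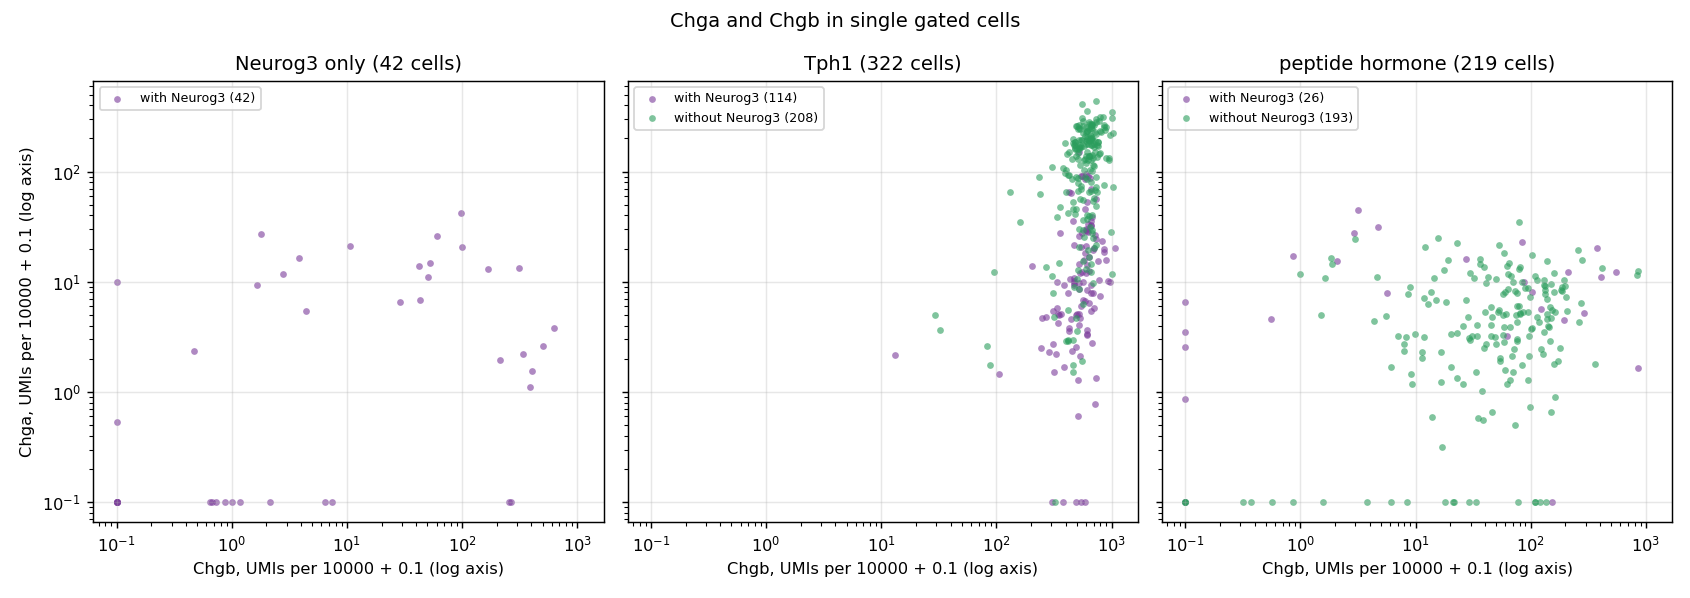
Each point is a gated cell, with Chgb on the x axis and Chga on the y axis in UMIs per 10000 plus 0.1 (log axes), for 42 Neurog3, 322 Tph1 and 219 hormone cells, coloured by the Neurog3 gate. The quartiles of Tph1 cells are 480 and 673 Chgb UMIs per 10000, with single cells down to 13.2, and Tph1 cells without Neurog3 have a median of 130 Chga UMIs per 10000 against 9.71 with Neurog3.

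Hormone cells with Neurog3 were fewer, 18 of 93 in set 1 and 8 of 126 in set 2. In them Chga was higher, not lower, at 967 and 1221 CPM against 498 and 569 CPM in the 193 hormone cells without Neurog3. Scg2 stood at 41.0 and 530 CPM with Neurog3 and 1154 and 1262 CPM without, and 3 cells held 93.1% of the Scg2 UMIs of the former. Cpe was likewise lower with Neurog3, at 753 and 1427 CPM against 2348 and 2565 CPM. Whether the Neurog3 difference in Chga itself differs between Tph1 and hormone cells was not tested.

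Cells past the Neurog3 gate alone held less of most members than the hormone and Tph1 cells. Against them, 8 of 10 members were at least 2-fold higher in hormone cells, where 14.2% of 11579 genes were. In Tph1 cells 9 of 10 were, where 20.4% of 11881 genes were. The 9 include Scg2, with 24 UMIs against 0, at a log2 ratio of 2.55 on CPM plus 1. By a limit of 3 counts in the Neurog3 class it was 1.28-fold, and its interval began at 0.963, so 2-fold was not shown for it. Scg2 was not seen in 42 of 42 Neurog3 cells, which allows up to 3.78 CPM, so hormone cells were at least 293-fold higher by the limit of 3 counts over the class. The Neurog3 cells were few and mixed, with 19 of 42 also past the goblet and Paneth gate, and without such cells 7 of 10 members passed in hormone cells.

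Cpe, the granule carboxypeptidase, stood at 224 CPM in set 1 and 318 in set 2 of the Neurog3 cells, and hormone cells were 9.19-fold higher (7.99 to 10.6). Pcsk1 stood at 61.4 and 105 CPM (5.40-fold higher in hormone cells, 4.17 to 7.13, and 7.84-fold higher in Tph1 cells, 6.06 to 10.3). Scg5 stood at 25.3 and 46.0 CPM, Scg3 at 39.7 and 12.5 CPM, Vgf at 14.5 and 25.1 CPM and Pcsk1n at 7.23 and 29.3 CPM. Their ratios of hormone over Neurog3 cells ran from 3.94 for Vgf to 7.79 for Scg5. Pcsk2 had 2 UMIs in Neurog3 cells, so its ratio of 7.97 in hormone cells has an interval of 2.13 to 66.9. Without the Sst-led cell its log2 ratio was 0.72 and 7 of 10 members passed 2-fold.

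Chga and Chgb were the 2 members within 2-fold between hormone and Neurog3 cells. Chga stood at 300 and 422 CPM in Neurog3 cells, 1.77-fold below hormone cells (1.56 to 2.02). Chgb stood at 6607 and 5134 CPM, 1.40-fold below (1.36 to 1.44). The direction of both changed with the scaling. With the CPM averaged over single cells, the log2 ratios of 0.82 and 0.48 became -0.03 and -0.12, and Chgb was also lower in hormone cells with doubled gates (-0.16) and without cells of 2 lineages (-0.23). Against Tph1 cells both were far lower, with Tph1 cells 28.1-fold higher in Chga (24.9 to 31.8) and 8.99-fold in Chgb (8.74 to 9.25).

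The Neurog3 cells fell on either side of a Chgb level of 10 UMIs per 10000, a line drawn after the values were seen, so the split is a description. In 19 cells above it Chgb stood at 24072 CPM, Chga at 876, Cpe at 597 and Pcsk1 at 124 CPM. In the 23 cells below it, which had a median of 22876 UMIs, Chgb stood at 84.5 CPM (62.7 to 111), not far from the 61.1 CPM of other cells. Those 23 cells still held 154 CPM of Chga (124 to 189), 135 of Cpe (107 to 168) and 57.5 of Pcsk1 (39.8 to 80.3), against 8.19, 5.32 and 0.949 CPM in other cells. Chga there came from 8 of the 23 cells, and 3 cells held 63.7% of it.

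Hormone cells were also grouped by the hormone with most UMIs. Cck led in 158 cells (66 in set 1 and 92 in set 2), Gip in 37 (19 and 18) and Ghrl in 14 (6 and 8). Between Gip-led and Cck-led cells, 2 of 10 members were at least 2-fold apart, against 14.2% of 10714 genes. Scg2 was 2.83-fold higher in Cck-led cells (2.51 to 3.21), at 1405 against 496 CPM, and the median cell held 9.89 against 1.97 UMIs per 10000. Pcsk2 was 41.0-fold higher in Gip-led cells (9.64 to 368), but on 16 UMIs in 3 cells against 2 UMIs. Cpe was near level, at 2614 CPM in Cck-led and 2223 CPM in Gip-led cells, and Pcsk1 stood at 450 and 292 CPM.

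The 14 Ghrl-led cells had another balance of the 2 chromogranins. Their median Chga was 14.7 UMIs per 10000, against 5.17 in Cck-led and 2.36 in Gip-led cells. Their median Chgb was 2.40 UMIs per 10000, against 71.9 and 40.4. In CPM the Chgb of Ghrl-led cells reached 8533, but 3 of the 14 cells held 98.7% of it. Scg2 stood at 135 CPM in them, with a UMI in 6 of 14 cells. Neurog3 stood at 406 CPM in these cells.

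**Figure D4:**
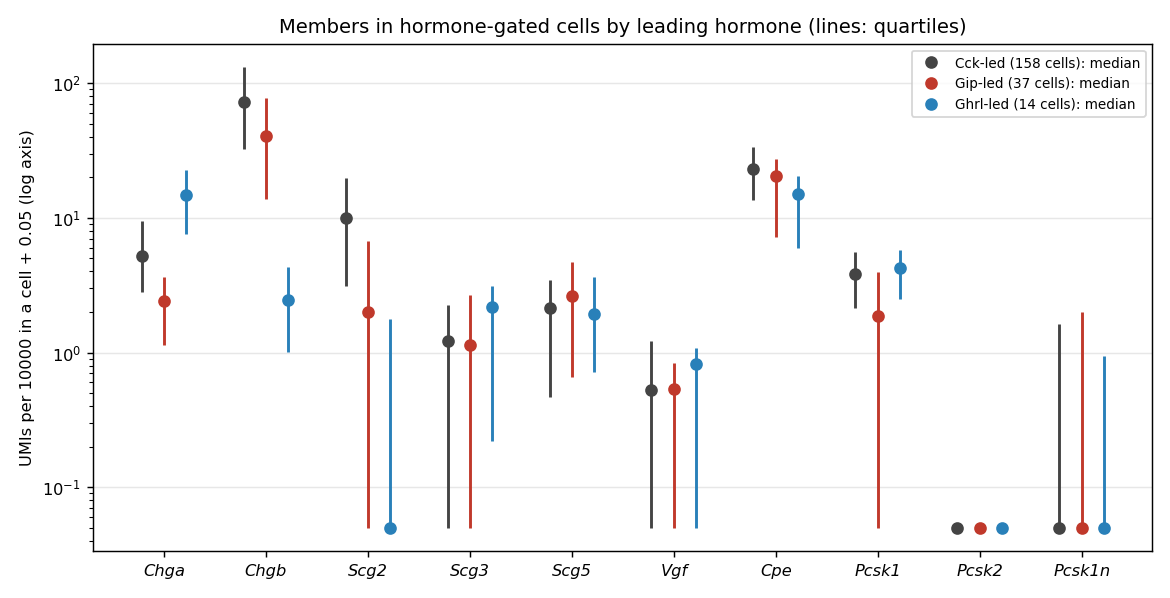
Medians (points) and quartiles (lines) of each member in single cells, in UMIs per 10000 plus 0.05 on a log axis, for 158 Cck-led, 37 Gip-led and 14 Ghrl-led cells. Chga is highest and Chgb lowest in Ghrl-led cells, and the Scg2 median is 9.89 in Cck-led and 1.97 in Gip-led cells.

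Fewer cells were led by the remaining hormones. In 5 Gcg-led cells Scg2 stood at 1224 CPM, Cpe at 1714, Pcsk1 at 501 and Chga at 545 CPM, while Pcsk2 had 0 UMIs. The 4 Nts-led cells stood apart, with 0 UMIs of Chga, Scg2, Scg3, Scg5, Pcsk1, Pcsk2 and Pcsk1n, and with 8 UMIs of Chgb, or 39.9 CPM (17.2 to 78.7), an interval that includes the 61.1 CPM of other cells. Their median depth was 44218.5 UMIs, above that of hormone cells, and Neurod1 and Neurog3 were at 0 in them. Cpe was the member they held, with 45 UMIs over 4 of 4 cells (225 CPM).

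Most Pcsk2 UMIs came from 2 cells. Of its 98 UMIs in gated cells, 61 lay in the single Sst-led cell, a cell of set 2 with 4850 Sst, 348 Gip, 12 Scg5 and 3 Pcsk1 UMIs out of 17979. A further 13 lay in a Gip-led cell of set 2 that held 6523 Gip and 15 Sst UMIs. Without the Sst-led cell the log2 ratio of hormone over Tph1 cells fell from 2.54 to 0.68, and 5 instead of 6 members differed by 2-fold. The log2 ratio of hormone over Neurog3 cells fell from 2.58 to 0.72, and that of set 2 over set 1 from 2.29 to 0.66. These statements about Pcsk2 therefore rest on 1 cell. The log2 ratio of gated over other cells, on CPM plus 1, was 3.30 with the cell and 2.10 without it.

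Within gated cells, 2 of 10 members differed at least 2-fold between the barcode sets, against 2.98% of 12904 genes. They were Pcsk2, 6.4-fold higher in set 2 (3.55 to 12.5), and Scg2, 2.02-fold higher (1.90 to 2.15). The other 8 lay between 0.875 (Vgf) and 1.49 (Cpe). The sets held different mixtures of classes, with 126 hormone cells in set 2 and 93 in set 1. Within hormone cells Scg2 was 1.31-fold higher in set 2 (1.23 to 1.40), and Pcsk2 alone passed 2-fold, where 5.76% of genes did. Scg2 also slipped below 2-fold without the mitochondrial limit, with halved or doubled gates, without cells of 2 lineages and with a pseudocount of 10 CPM, at 0.93 to 0.99 on the log2 scale.

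Within Tph1 cells Chga was 1.45-fold higher in set 2 (1.42 to 1.47) and Chgb 1.09-fold (1.08 to 1.09). Scg2 at 2.65-fold (1.04 to 7.55) and Pcsk2 at 3.63-fold (0.936 to 20.6) passed 2-fold there on 24 and 13 UMIs, where 3.92% of genes did. Within hormone cells Chga differed by 1.02-fold (0.935 to 1.10), Chgb by 1.04-fold and Scg3 by 1.58-fold (1.33 to 1.88). No label ties a set to a library or a treatment. A difference between the sets therefore cannot be told apart from one between library preparations or between treatments.

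The number of members seen in a cell differed between classes. The median hormone cell had a UMI of 8 of the 10 members, the median Tph1 cell of 7, the median Neurog3 cell of 4 and the median ungated cell outside the enterocyte, goblet and Paneth, and tuft gates of 1. At least 8 members were present in 119 of 219 hormone cells, 108 of 322 Tph1 cells, 17 of 37 cells of both and 0 of those 3111 ungated cells. These counts move with depth, which was lower in gated than in other cells. Among gated cells, median UMIs ran in the same order as the counts, at 17905 in hormone, 14241 in Tph1 and 12744 in Neurog3 cells.

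Across 11 points, each a class in a barcode set with at least 20 cells, the mean centred profile of the members on log2 of CPM plus 1 was compared with 8103 genes. The genes most alike were Sez6l2 (r = 0.998), Mageh1 (0.997), Syp (0.996), which encodes the vesicle protein synaptophysin, Pnmal1 (0.995) and Pkib (0.993). Among the members r ran from 0.992 for Scg3 down to 0.843 for Pcsk2 and 0.679 for Scg2. The points come from 2 barcode sets and include gated and other cells, so these values are a description.

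Other genes of the dense-core granule were followed with a list of 34. Of these, 28 were at least 2-fold higher in gated than in other cells (25.0% of all genes were), 2 were lower (7.84% of all genes were) and 4 (Sytl4, Rab27b, Furin and Ccdc186) lay within 2-fold, with a median log2 ratio of 4.41 against 0.33 over all genes. The highest were Rab3c, a small GTPase of secretory vesicles, at 431 against 0.606 CPM (log2 ratio 8.07), and Syt13, a synaptotagmin, at 174 against 0.342 CPM (7.03). Ptprn2, a granule membrane protein of the phosphatase family, stood at 150 against 0.215 CPM (6.96), and Resp18 at 111 against 0.362 CPM (6.36). The 2 lower genes encode convertases of the same family as Pcsk1. Pcsk6 stood at 2.81 CPM in gated and 15.9 CPM in other cells (-2.15), and Pcsk5 at 6.99 and 24.0 CPM (-1.65). Between hormone and Tph1 cells, 4 of 33 list genes were at least 2-fold higher in hormone cells (5.2% of all genes were), 9 in Tph1 cells (8.34%) and 20 lay within 2-fold.

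**Figure D5:**
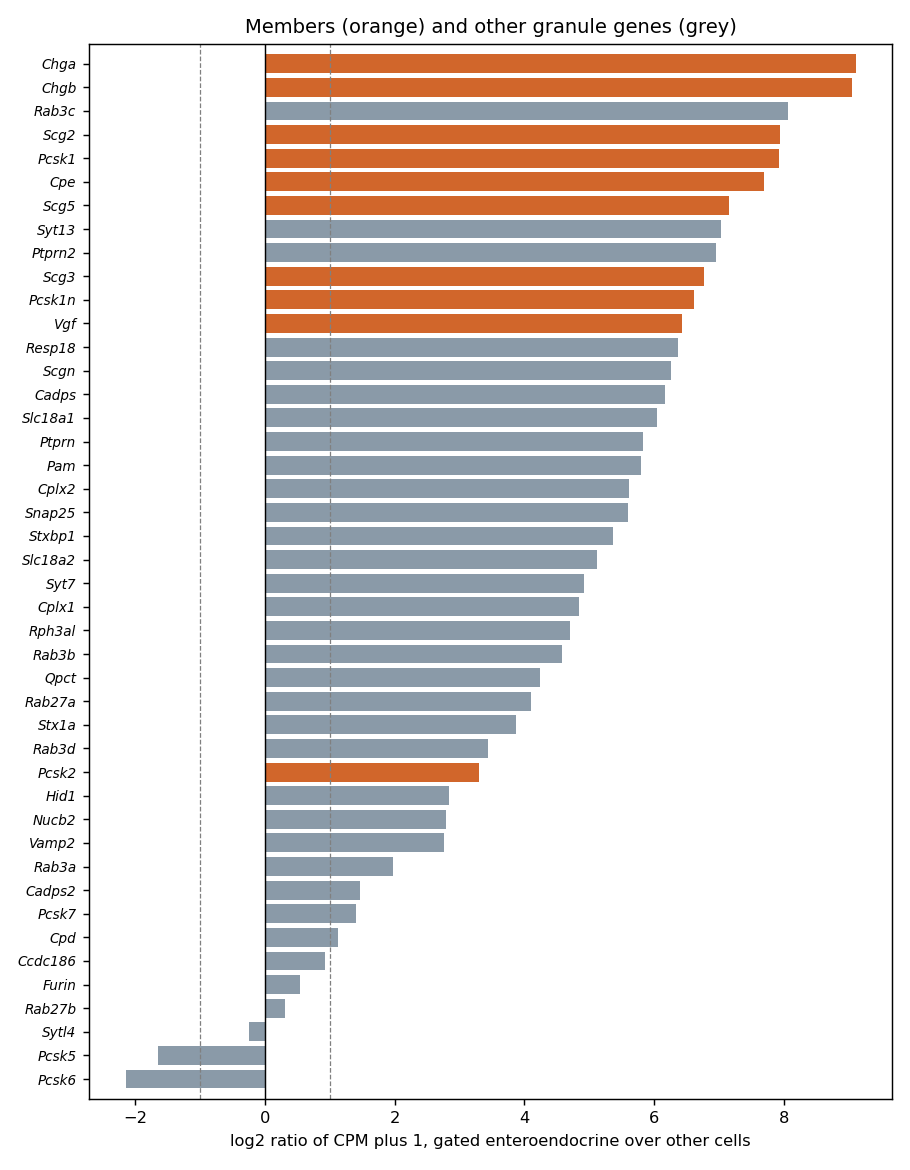
Log2 ratio of CPM plus 1 in gated over other cells, as bars from 0, for the 10 members (orange) and the 34 other granule genes (grey), with dashed lines at 2-fold. The bars run from -2.15 for Pcsk6 to 9.11 for Chga, and 28 grey bars pass the upper line.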

How the data were processed

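The matrices of the 2 samples were deposited by the authors as raw UMI counts per gene and barcode, with no normalization. Per the submitters' processing notes, Cell Ranger 3.1.0, STAR 2.7.3a and bcl2fastq 2.20.0 were used, and the genome build is not given in the sources used here. Per the labels' protocols, 3' version 3 droplet libraries were sequenced on an Illumina instrument. UMIs were summed per class with Python 3.11.15, numpy 2.4.6, pandas 2.3.3 and scipy 1.17.1, over genes with at least 10 UMIs in the 2 classes compared, and ratios on the log2 scale used CPM with a pseudocount of 1. A gene was called at 2-fold. No doublet caller was run. Some alternatives left out cells of 2 lineages, or the 5% of cells with most UMIs in each class and set. Others moved the limits, gates, pseudocount and scaling. The calculation of the ratios was checked on simulated counts with known fold changes. The 10 members, the gates and the lists were chosen with earlier results of these data known. The text names all members, the 4 highest and 2 lowest granule genes by ratio of gated over other cells, the 5 genes most alike in profile, and leading hormones with at least 10 cells. The 4 genes of the granule list within 2-fold, the goblet and Paneth markers, and the Gcg-led, Nts-led and Sst-led cells were named after their values were seen. Number of per-sample columns left unused: 0.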

Additional observations from a re-analysis of the deposited data

Results flagged for a closer look

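Barcodes over the 20% mitochondrial limit entered the comparisons only in the alternative without that limit, and some of them carried granin signal. Chgb stood at 32192 CPM in 39 such barcodes that passed the Tph1 gate and at 2824 CPM in 129 that passed the hormone gate, against 200 CPM in the 9604 that passed neither gate. Chga stood at 4505 and 334 CPM and Scg2 at 2.36 and 307 CPM in the same barcodes, so the order of Tph1 and hormone classes was that of the kept cells.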

How the results depend on the processing

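Members at least 2-fold higher in gated than in other cells numbered 9 to 10 over the alternatives (10 as reported). Those apart between hormone and Tph1 cells numbered 5 to 7 (6), those higher in hormone than in Neurog3 cells 7 to 9 (8), and granule genes higher in gated cells 25 to 29 (28). The count between the barcode sets, 2 as reported, was 1 without the mitochondrial limit, with doubled gates, with halved gates, without the Sst-led cell and with 10 CPM as pseudocount, and 0 without cells of 2 lineages. In the last case Pcsk2 stood at 0.59 and Scg2 at 0.99 on the log2 scale. Leaving out the Sst-led cell, or the 4 Nts-led cells, was chosen after seeing the data. Shares of cells with a UMI rose with depth, and at 1000 UMIs the gated share was 62.0% for Chga and 90.7% for Chgb. Members with few UMIs (Pcsk2, and Scg2 in Tph1 and Neurog3 cells) are limited by depth. No paired analysis was possible because both samples hold the same matrix and no result comes from a test. Leaving out a replicate was not possible either.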

Other observations

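Neurod1 is a transcription factor downstream of Neurog3. Outside the 3 gates, 14 cells held at least 3 Neurod1 UMIs and 1 per 10000 UMIs (11 in set 1 and 3 in set 2). They carried 30421 CPM of Chgb, 2256 of Chga, 581 of Cpe and 248 of Pcsk1, with a median of 277 Chgb UMIs per 10000. Scg2 and Pcsk2 had 0 UMIs in them, where 3 counts over the class would be 16.1 CPM.

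Between hormone and Tph1 cells the log2 ratios of the granule list ran from -5.92 to 5.43, and those of the 10 members from -3.99 to 7.57. The genes named here were chosen after their values were seen. The calcium-binding protein secretagogin (Scgn) stood at 234 CPM in hormone and 4.44 CPM in Tph1 cells, and Qpct, which forms pyroglutamate at peptide ends, at 41.2 and 0.605 CPM. The vesicular monoamine transporters went the other way, with Slc18a1 at 57.3 and 393 CPM and Slc18a2 at 0.503 and 89.8 CPM. Rab3c stood at 44.7 and 799 CPM and Rab3b at 3.77 and 47.2 CPM.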
